A study of Homo sapiens with 6 samples.

Results

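The plasminogen activator system was followed through 6 genes: PLAU and PLAT, which encode the activators, PLAUR, which encodes the urokinase receptor, SERPINE2 and SERPINB2, which encode serpin inhibitors, and THBS1, which encodes thrombospondin-1. They were picked by gene symbol from the 54308 genes of the deposited table, and all 6 had a log2 signal in all 6 libraries. The cells were 143B, a human osteosarcoma line. Vector control (VC) cells had received a control CRISPR/Cas9 plasmid and CNTNAP4 knockout (KO) cells one aimed at CNTNAP4, a neurexin-family membrane protein. The labels give 48 h of transfection for both groups. The study's methods instead give a longer incubation with the plasmid, followed by sorting of single cells and expansion of colonies. Each group has 3 libraries, so the KO libraries, replicates 1 to 3, were compared with the VC libraries, replicates 1 to 3. The cells were clonal and grown from sorted single cells, and the sources used here do not say which colony gave which library. The study's methods describe fewer expanded colonies with the deletion than there are KO libraries, so KO libraries may share a colony. In what follows, n counts libraries and not colonies. A difference between colonies cannot be told apart from the deletion.

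Plasminogen is a circulating zymogen that urokinase (PLAU) and tissue-type activator (PLAT) cut into plasmin, a broad serine protease of fibrin and matrix. Urokinase bound to its receptor PLAUR keeps this activity at the cell surface, and serpins such as SERPINB2 and SERPINE2 trap the activators in inactive complexes. Osteosarcoma and other invasive tumour cells are known to use this system to cut through matrix, and thrombospondin-1 is a matrix protein that binds plasminogen and its activators among many other partners.

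In KO the genes for urokinase, its receptor and the inhibitor SERPINB2 rose, each with all 3 KO values above all 3 VC values. PLAU was 2.09-fold and PLAUR 2.11-fold higher, and SERPINB2, whose signal was low in VC, was 10.5-fold higher. SERPINE2 and THBS1 had lower means in KO with groups that did not overlap, and neither passed the test. PLAT had overlapping groups. So 3 of the 6 genes rose, 0 fell and 3 did not pass an adjusted p of 0.05 by limma's moderated test, although at an unadjusted p under 0.05 there were 2 with lower signals. Over all 19306 genes tested, 13.1% were called higher in KO and 19.8% lower, and the groups did not overlap in 59.3% of genes with 6 values against 5 of these 6 genes. The median log2 fold change was 0.60 over the 6 genes and -0.13 over all genes tested.

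**Figure D1:**
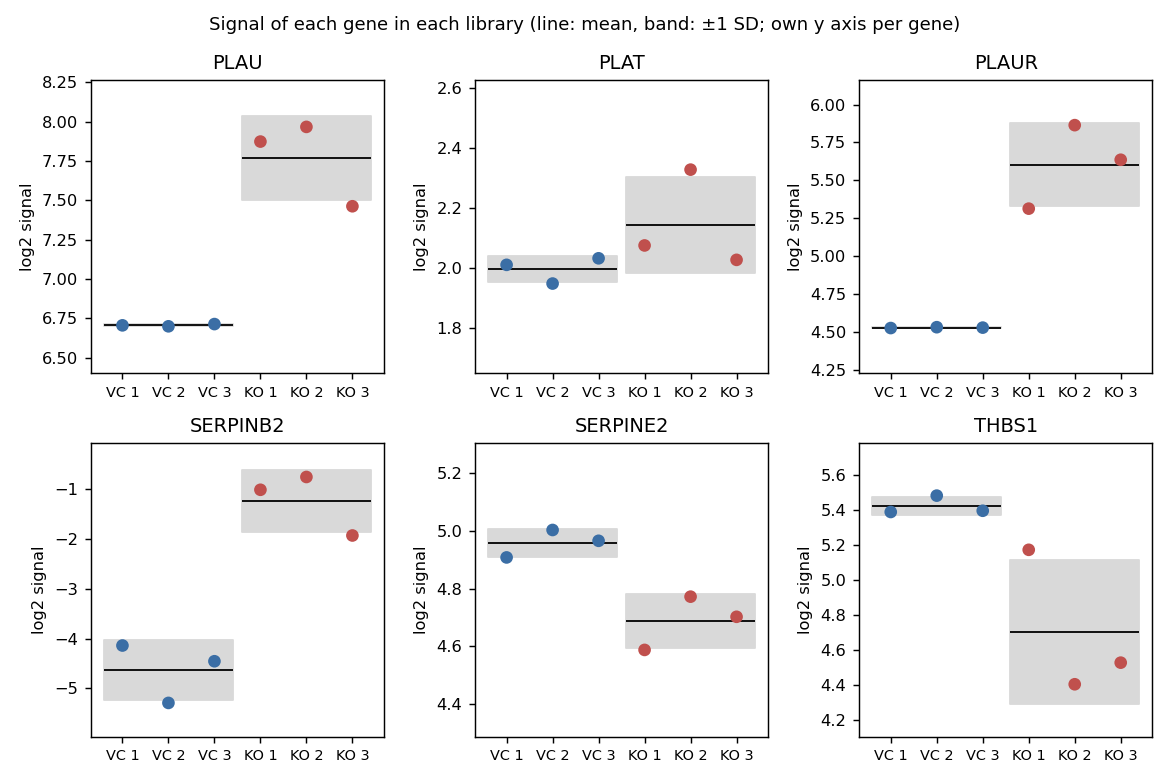
Log2 signal (y axis, its own range for each gene) of the 6 genes in VC and KO replicates 1 to 3 (x axis), VC in blue and KO in red, with the group mean as a line and ±1 SD as a band. The VC points of PLAU and PLAUR nearly coincide, and the KO points of PLAU, PLAUR and SERPINB2 lie above every VC point.

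The signals are log2 values that the authors had quantile-normalized between libraries, and the depth behind them is unknown. Every log2 fold change below is KO against VC with its standard error, and adjusted p-values are from limma with Benjamini-Hochberg adjustment over all 19306 genes. The linear unit is not given in the sources used here and may not be per length, so levels are compared between libraries and not between genes. CNTNAP4 had a value in VC replicate 3 alone (log2 signal -7.18), so the signals neither show nor exclude its loss. Apart from these signals, the study reported the deletion in its KO clones by qRT-PCR, western blot and an endonuclease assay. Of 11 mesenchymal and osteoblast-lineage markers, 8 lay above the median signal of 0.62 in all 6 libraries, while COL1A2, ALPL and THY1 did not. Among the 11, 3 were called higher and 2 lower in KO, where 32.9% of all genes tested were called in either direction. The linear signals of the 11 markers summed to 1526 to 1702 in VC and 1808 to 2218 in KO, without overlap. Most of each sum was VIM, which was not called (log2 fold change 0.38, limma adjusted p = 0.0667), so the sums say little about the other markers. All 5 haematopoietic and all 4 endothelial markers lay below that median wherever they had a value. The linear signals of the haematopoietic markers summed to 0.231 to 0.262 in VC and 0.177 to 0.218 in KO. Among them CSF1R was higher in KO (log2 fold change 2.16, adjusted p = 0.00571). Of the epithelial markers EPCAM was above the median and lower in KO (log2 fold change -0.67, adjusted p = 0.0157), while KRT14 had no value. KRT5 had values in the VC libraries alone and CDH1 in VC replicate 2 alone, all below the median. The linear signals of the epithelial markers summed to 3.09 to 3.49 in VC and 1.79 to 2.24 in KO, nearly all of it EPCAM. Those of the endothelial markers summed to 0.0551 to 0.0883 in VC and 0.0561 to 0.1085 in KO, and the part of these markers in the results was not tested. In bulk RNA, fewer cells expressing a gene and less RNA per cell cannot be told apart.

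PLAU encodes urokinase, the activator that works mainly at the cell surface, and lies on chromosome 10 from 73908832 to 73917494 (GRCh38). Its log2 signals in replicates 1, 2 and 3 were 6.70, 6.70 and 6.71 for VC and 7.87, 7.97 and 7.46 for KO. The lowest KO library, replicate 3, was still 0.75 above the highest VC library. The means were 6.71 ± 0.0071 (SD, n = 3) for VC and 7.77 ± 0.27 (SD, n = 3) for KO, which is a log2 fold change of 1.06 with a standard error of 0.15 (limma adjusted p = 0.0114), with a 95% confidence interval of 0.69 to 1.43. A larger log2 fold change was found in 5.01% of all genes tested. The noncoding gene C10orf55 overlaps PLAU, and the sources used here do not say whether reads were counted by strand. C10orf55 had a highest log2 signal of 0.73 and a log2 fold change of 0.51 (limma adjusted p = 0.23), with overlapping groups.

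PLAUR encodes the glycolipid-anchored receptor that holds urokinase on the membrane, and lies on chromosome 19 from 43646095 to 43670169. Its log2 signals in replicates 1, 2 and 3 were 4.52, 4.53 and 4.53 for VC and 5.31, 5.86 and 5.64 for KO. KO replicate 1 was the nearest to VC and lay 0.78 above the highest VC value. From a mean of 4.53 ± 0.0028 (SD, n = 3) for VC to 5.60 ± 0.28 (SD, n = 3) for KO, the log2 fold change was 1.08 (standard error 0.15, adjusted p = 0.0115 by limma), with a 95% confidence interval of 0.70 to 1.46.

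PLAT encodes tissue-type activator, the main activator of fibrinolysis in blood, and lies on chromosome 8. Its log2 signals in replicates 1, 2 and 3 were 2.01, 1.95 and 2.03 for VC and 2.07, 2.33 and 2.03 for KO. KO replicate 3 lay just under the highest VC library, so the groups overlapped. The log2 fold change was 0.15 (standard error 0.10, adjusted p = 0.307 by limma), and its 95% confidence interval, from -0.11 to 0.40, reaches from a small decrease to a 1.32-fold increase. The 636 tested genes of chromosome 8 had a median log2 fold change of -0.32, and 34.3% of them were called lower, against 19.8% of all genes tested. The medians of chromosomes 10, 19, 2 and 15, which carry PLAU, PLAUR, SERPINE2 and THBS1, were -0.14, -0.051, -0.0996 and -0.092. Over all genes tested the median was -0.13.

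SERPINB2 encodes plasminogen activator inhibitor 2, a clade B serpin that inactivates urokinase and also stays inside cells, and lies on chromosome 18 from 63887705 to 63903888. Its log2 signals in replicates 1, 2 and 3 were -4.14, -5.29 and -4.46 for VC and -1.02, -0.76 and -1.93 for KO. All 6 values were below the median signal of 0.62, and the nearest KO and VC libraries were 2.21 apart. The means were -4.63 ± 0.60 (SD, n = 3) and -1.24 ± 0.62 (SD, n = 3), which is a log2 fold change of 3.39 with a standard error of 0.43 (limma adjusted p = 0.0101), with a 95% confidence interval of 2.31 to 4.48. Only 0.192% of all genes tested had a larger log2 fold change. With 1 added to the linear signal, which shrinks changes of low signals, the log2 fold change was 0.47 (limma adjusted p = 0.0148).

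SERPINE2 encodes protease nexin-1, a secreted serpin that inhibits thrombin, urokinase and plasmin, and lies on chromosome 2 from 223975045 to 224039286. Its log2 signals in replicates 1, 2 and 3 were 4.91, 5.00 and 4.96 for VC and 4.59, 4.77 and 4.70 for KO. All KO values were below all VC values, by at least 0.14. The means were 4.96 ± 0.048 (SD, n = 3) for VC and 4.69 ± 0.093 (SD, n = 3) for KO, a log2 fold change of -0.27 with a 95% confidence interval of -0.47 to -0.071 (standard error 0.079, limma adjusted p = 0.0507). Measured from the median of all genes tested, the difference was -0.15. Its adjusted p lay between 0.0011 and 0.18 over 16 alternative fits, 7 of them under 0.05, with the sign unchanged in all 16.

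THBS1, which encodes thrombospondin-1, a matricellular protein that also activates latent TGF-beta, lies on chromosome 15 from 39581079 to 39599466. Its log2 signals in replicates 1, 2 and 3 were 5.39, 5.48 and 5.39 for VC and 5.17, 4.40 and 4.53 for KO. KO replicate 1 stood between the VC libraries and the other KO libraries, 0.22 under the lowest VC value. The log2 fold change was -0.72 (standard error 0.22, 95% confidence interval -1.26 to -0.18, adjusted p = 0.0535 by limma), from means of 5.42 ± 0.052 (SD, n = 3) for VC and 4.70 ± 0.41 (SD, n = 3) for KO. Without KO replicate 1 it was -0.96 (adjusted p = 0.00501 by limma), and with any other single library left out the adjusted p was 0.119 to 0.139.

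**Figure D2:**
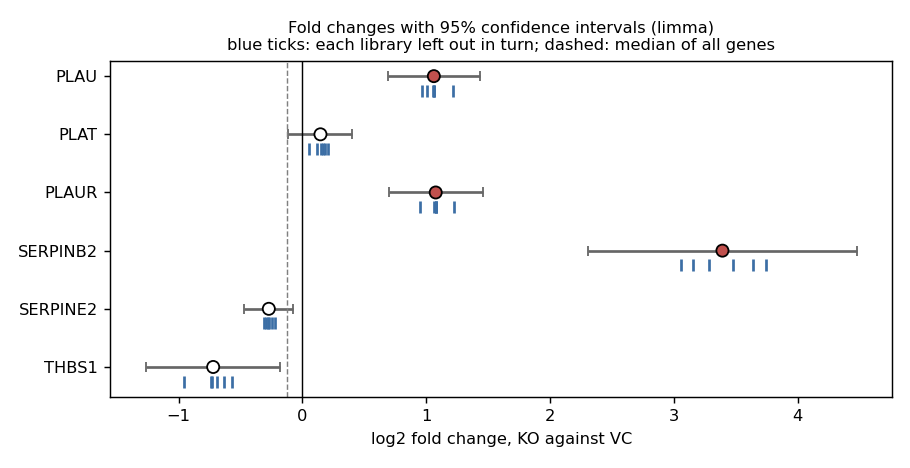
Log2 fold change of each gene, KO against VC (x axis), with its 95% confidence interval from limma. Filled points passed an adjusted p of 0.05, blue ticks are the values with each library left out in turn, and the dashed line is the median of all genes at -0.13. SERPINB2 lies at 3.39, PLAU and PLAUR lie together near 1.1, and the interval of PLAT crosses 0.

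The rises of PLAU, PLAUR and SERPINB2 kept an adjusted p under 0.05 by limma with each of the 6 libraries left out. The highest values, 0.0485, 0.0492 and 0.0444, came without VC replicate 3. The order of the KO libraries was not shared by the 6 genes. KO replicate 2 had the highest value of PLAU, PLAUR, PLAT, SERPINB2 and SERPINE2 among the KO libraries and the lowest of THBS1. The KO library nearest to the VC mean was replicate 3 for PLAU, SERPINB2 and PLAT, replicate 1 for PLAUR and THBS1, and replicate 2 for SERPINE2. The SD was larger in KO than in VC for all 6 genes, as it was for 70.2% of genes with 6 values.

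The activator was next set against its partners within each library. The difference of 2 log2 signals in a library is a log2 ratio, in which the length of each gene cancels when KO is compared with VC. PLAU minus SERPINE2 in replicates 1, 2 and 3 was 1.80, 1.70 and 1.75 for VC and 3.29, 3.20 and 2.76 for KO. This ratio of activator RNA to the RNA of 1 inhibitor was higher in every KO library than in every VC library. The group means differed by 1.33 on the log2 scale. Protein and plasmin activity were not measured in these data. PLAU minus PLAT was also higher in KO, going from 4.71 ± 0.037 (SD, n = 3) to 5.63 ± 0.18 (SD, n = 3), without overlap. PLAU minus SERPINB2 was lower in KO, going from 11.3 ± 0.59 (SD, n = 3) to 9.004 ± 0.35 (SD, n = 3), since SERPINB2 changed by more than PLAU on the log2 scale. Each of these differences had an exact permutation p of 0.1 (two-sided, the smallest that 3 against 3 allow), or 0.133 adjusted over the 4 pairs, so none could pass 0.05. PLAU minus PLAUR was 2.18 ± 0.0087 (SD, n = 3) for VC and 2.16 ± 0.37 (SD, n = 3) for KO (exact permutation p = 1), with KO values of 2.56, 2.10 and 1.83 on either side of the VC values. With 1 added to the linear signal, PLAU minus SERPINB2 was 0.59 higher in KO and not lower, so its direction depends on how low signals are scaled.

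**Figure D3:**
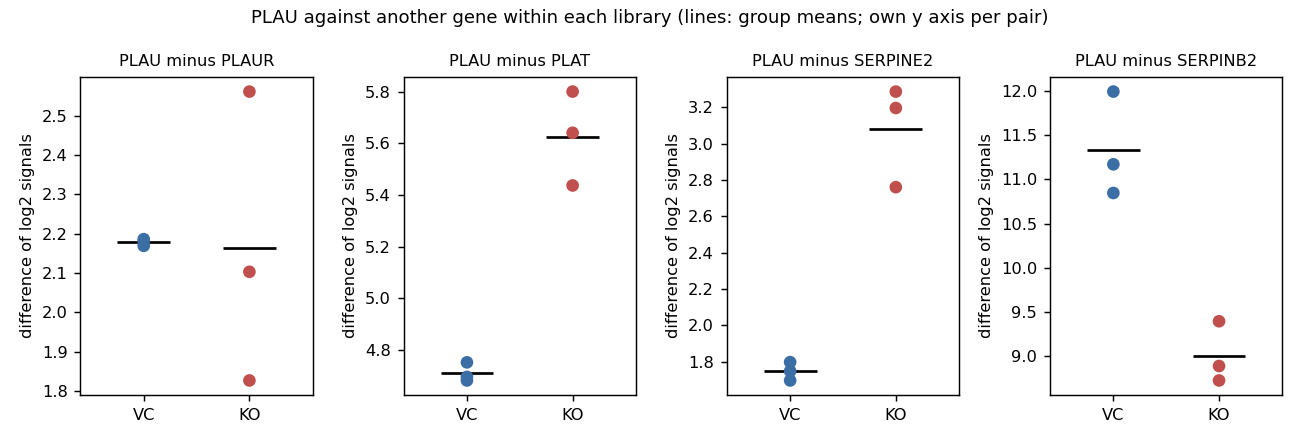
Difference between the log2 signal of PLAU and that of another gene in each library (y axis, its own range for each pair), with VC and KO on the x axis and lines at the group means. The KO points lie above the VC points for PLAT and SERPINE2, below them for SERPINB2, and on both sides of them for PLAUR.

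Promoter sequence is printed for the genes that rose together, to show what precedes their start sites. The windows are from RefSeq on GRCh38.p14, read 5′ to 3′ on the gene's strand, with matches to TGANTCA, the core of an AP-1 site on either strand, in capitals. PLAU and SERPINB2 are shown from 250 to 51 bases before the start and PLAUR from 197 to 168, the 30 bases around its match, all of which lie in annotated exons of other PLAUR transcripts. RefSeq gives 2 start sites for PLAU, and the window shown precedes the downstream one, within 50 bases of which 3 of 5 GENCODE transcripts begin. For PLAUR 5 of 16 and for SERPINB2 2 of 6 transcripts begin within 50 bases of the start used.
PLAU, chr10:73910882-73911081, plus strand: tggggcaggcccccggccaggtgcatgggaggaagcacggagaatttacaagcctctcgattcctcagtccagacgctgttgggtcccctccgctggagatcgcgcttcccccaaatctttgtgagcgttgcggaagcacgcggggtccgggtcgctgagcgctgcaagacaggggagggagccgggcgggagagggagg
PLAUR, chr19:43670337-43670366, minus strand: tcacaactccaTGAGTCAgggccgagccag
SERPINB2, chr18:63887455-63887654, plus strand: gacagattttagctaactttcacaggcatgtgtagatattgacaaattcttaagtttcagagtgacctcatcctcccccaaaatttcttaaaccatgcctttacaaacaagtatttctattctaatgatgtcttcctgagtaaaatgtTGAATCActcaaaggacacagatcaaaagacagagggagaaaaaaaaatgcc

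In the 250 bases before the start, PLAUR has 1 match, TGAGTCA, beginning 186 bases upstream, and SERPINB2 has 1, TGAATCA, beginning 102 bases upstream. Neither PLAU window holds one, nor do those of SERPINE2 and THBS1, and PLAT was not searched. Of all 35116 windows of this length, 6.57% hold at least 1 match. SERPINB2 also has a TATAAA beginning 30 bases upstream, a motif present in 10.7% of windows on either strand. The downstream PLAU window has 3 matches to GGGCGG, and the upstream PLAU window, PLAUR and SERPINB2 have 0. THBS1 has 4 and the SERPINE2 windows have 1 and 2, where 42.6% of windows have at least 1 on either strand. These are matches of letters in short windows, and binding was not measured.

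Among 9648 other genes with 6 values and a mean signal above the median gene, those nearest in pattern were found by the root mean square difference over the 6 libraries between deviations from the VC mean. TIFA (0.0656) and SEMA3A (0.0863) were nearest to PLAU, and TMEM173 (0.0418) and SHMT2 (0.042) to PLAUR, all on the log2 scale. SERPINB2 was matched less closely, by CHAC1 (0.348) and DDIT4 (0.433). The VC values of SERPINB2 had an SD of 0.60, where the median VC SD of genes with such signals was 0.0598. That scatter adds to its distance from any steadier gene, so the lack of close matches to SERPINB2 says little about its response. CEP78 (0.0416) and RAD54L (0.052) were nearest to THBS1, SEC23A (0.0185) and MYL12B (0.0278) to SERPINE2, and DCTN3 (0.0245) and ACP2 (0.0263) to PLAT. A difference under 0.2 was found for 93 genes with PLAU, 235 with PLAUR, 0 with SERPINB2 and 804 with THBS1. It was found for 3456 genes with SERPINE2 and 3247 with PLAT, and SERPINE2 and PLAT had the smallest changes of the 6 genes.

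The wider pathway was read from a list of 45 further genes, of which 30 were tested and 8 had no value in any library. Of the 30, 12 rose and 3 fell at an adjusted p under 0.05 by limma, which is 50%, where 32.9% of all genes tested were called in either direction. Their median log2 fold change was 0.34, against -0.13 over all genes tested. The shares over all genes, here and below, are not matched for signal, and 19 of the 30 had a mean signal in the upper 50%. A fit of only the upper 50% of genes called 5702 of 9653 genes, and 16 of these 19. The 15 calls fell to 5 without VC replicate 1, 5 without VC replicate 3, 9 without VC replicate 2 and 7 without KO replicate 3. They were 20 without KO replicate 1 and 14 without KO replicate 2. Over all genes tested, the 6354 calls fell to 1403, 1223, 2450 and 2018 without the libraries of the first sentence, in that order. All calls were 8669 without KO replicate 1 and 4393 without KO replicate 2. TFPI2, THBD, TFPI, A2M and THBS4 were called with each of the 6 libraries left out, and the other 10 genes lost their call both without VC replicate 1 and without VC replicate 3.

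Plasminogen itself (PLG) had a value in only 2 of the 6 libraries, and KLKB1, ST14 and HPN were not tested either. F12, which encodes coagulation factor XII, was the one further activator tested (log2 fold change -0.22, adjusted p = 0.163). Of 6 plasminogen receptors, 2 rose and 0 fell by limma, with 1 lower at an unadjusted p under 0.05, and the share called, 33.3%, was near the 32.9% of all genes tested. ANXA2, which encodes annexin A2, a docking protein for plasminogen and PLAT, had log2 signals in replicates 1, 2 and 3 of 8.11, 8.14 and 8.11 for VC and 8.49, 8.50 and 8.45 for KO (log2 fold change 0.36, adjusted p = 0.016). Its partner S100A10 had a log2 fold change of 0.48 (limma adjusted p = 0.0889) with groups that did not overlap. KRT8, a keratin that binds plasminogen at the surface of some tumour cells, rose by 0.59 on the log2 scale (limma adjusted p = 0.0135), and the enolase gene ENO1 had -0.25 (limma adjusted p = 0.0503). The adjusted p of ANXA2 and KRT8 passed 0.05 in 3 of the 6 fits that left out a library.

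Among 6 tested genes listed as inhibitors of plasmin and its activators, 3 rose and 1 fell. Over all genes tested, 13.1% were called higher and 19.8% lower. TFPI2, a secreted Kunitz inhibitor of plasmin, had log2 signals in replicates 1, 2 and 3 of 3.36, 3.46 and 3.30 for VC and 4.77, 5.29 and 4.89 for KO, without overlap (log2 fold change 1.61, standard error 0.15, adjusted p = 0.0079 by limma). The clade B serpins SERPINB8 (0.79, adjusted p = 0.0132) and SERPINB6 (0.41, adjusted p = 0.0367) also rose. The list placed both in this group, and their action on plasmin or its activators was not tested. A2M, which encodes the general protease trap alpha-2-macroglobulin, fell by 2.37 on the log2 scale (limma adjusted p = 0.0106). It was named after its value was seen, as were LRP1, THBS4 and SERPINB7, because their mean signals are in the lower 50%.

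Of the 10 further clade B serpins, 3 were tested. SERPINB1 rose by 0.998 on the log2 scale (limma adjusted p = 0.0247) and SERPINB7 fell by 2.08 (limma adjusted p = 0.0369), and SERPINB9, with 4 values, had 0.16 (limma adjusted p = 0.868). SERPINB7 and SERPINB8 lie on chromosome 18 with SERPINB2, and SERPINB7 had a change of the opposite sign. The 256 tested genes of chromosome 18 had a median log2 fold change of -0.19, with 11.7% called higher and 26.6% lower. Over all genes tested these shares were 13.1% and 19.8%.

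Of 6 tested clearance receptors and co-receptors, 3 rose and 0 fell by limma, with 1 lower at an unadjusted p under 0.05. The share called was 50%, where it was 32.9% over all genes tested. LRP1, the endocytic receptor that removes urokinase-serpin complexes, had a log2 fold change of 0.91 (limma adjusted p = 0.0159), and its chaperone LRPAP1 had -0.34 (limma adjusted p = 0.0635). MRC2, the collagen receptor that associates with PLAUR, rose by 0.75 (limma adjusted p = 0.0181) and IGF2R by 0.36 (limma adjusted p = 0.0179). CD47, a thrombospondin-1 receptor, had 0.22 (limma adjusted p = 0.102).

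The 4 other thrombospondin genes did not share one direction. THBS2 rose from 4.20 ± 0.058 (SD, n = 3) to 4.63 ± 0.077 (SD, n = 3), a log2 fold change of 0.44 (adjusted p = 0.0165 by limma). THBS4 fell by 0.95 (limma adjusted p = 0.00622), and THBS3 (0.32, adjusted p = 0.335) and COMP (-0.53, adjusted p = 0.497) had overlapping groups. Among 4 coagulation genes of the cell surface, 2 rose, where 13.1% of all genes tested were called higher. THBD, which encodes the thrombin receptor thrombomodulin, had log2 signals in replicates 1, 2 and 3 of 0.29, -0.091 and 0.18 for VC and 1.57, 2.43 and 2.04 for KO (log2 fold change 1.88, adjusted p = 0.0102). TFPI, an inhibitor of tissue factor, rose by 0.85 (limma adjusted p = 0.00891), while tissue factor itself, F3, had 0.13 (limma adjusted p = 0.385) with overlapping groups.

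**Figure D4:**
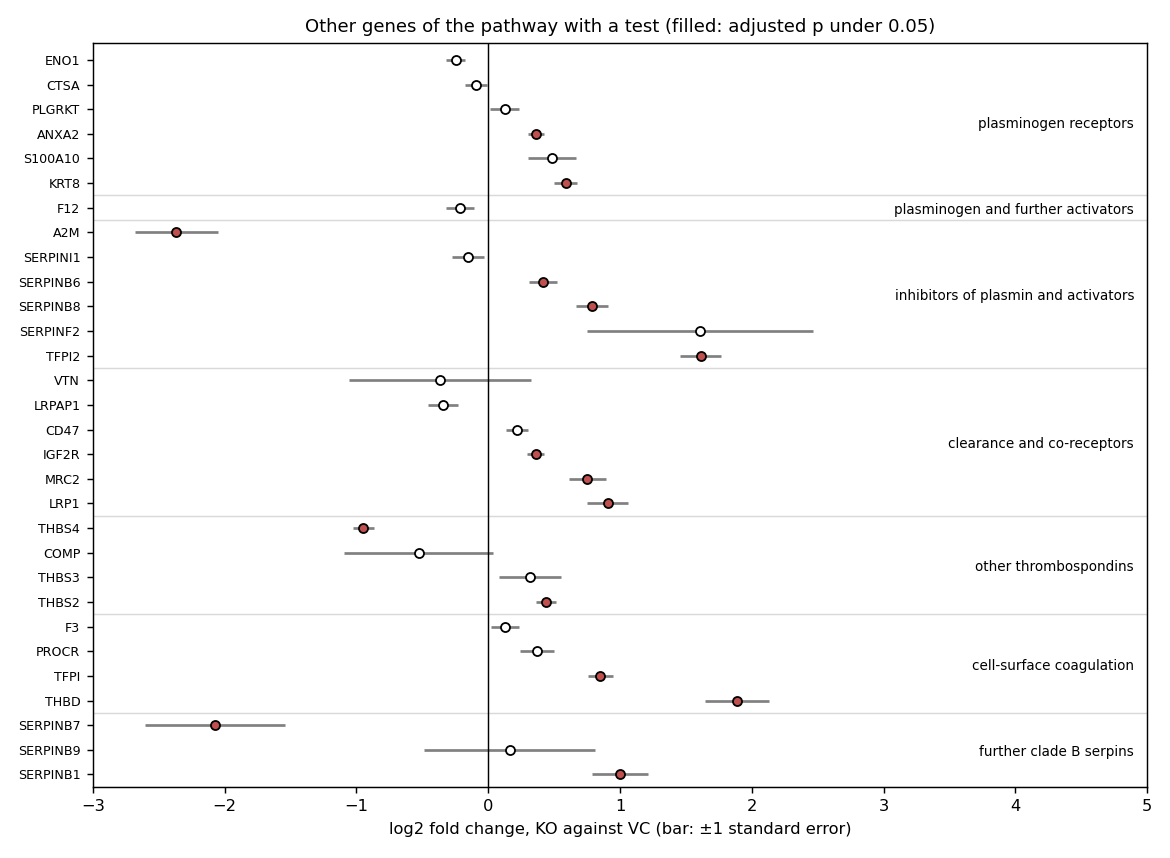
Log2 fold change of the 30 tested genes of the wider pathway, KO against VC (x axis), with ±1 standard error, grouped by role. Filled points passed an adjusted p of 0.05, and the 3 of these below 0 are A2M, THBS4 and SERPINB7.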

How the data were processed

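The libraries, 3 VC and 3 KO, were made from 143B RNA with a stranded mRNA kit per the labels, while the study’s methods describe total RNA, read on an Illumina NextSeq. The submitters' processing notes name CASAVA, STAR and Partek with GRCh38.p13, and the methods name the Server and Workbench of CLC Genomics, with Partek. The annotation, the linear unit and the software versions are not given in the sources used here. The authors deposited log2 signals, quantile-normalized between libraries, with an empty cell where a gene had no value, and between 20333 and 21041 genes had a value in a library. Depth is unknown, so no counting interval was computed.

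Signals were used as deposited in R 4.3.3 with limma 3.58.1 (linear model, empirical Bayes without trend). A gene was tested if VC and KO each had 2 or more values for it, and genes with an adjusted p under 0.05 were called. Within-library differences were compared by exact permutation over samples. No 2 libraries held identical values, and p-values measure only the spread between these samples. The fit was tested on simulated data, drawn with the same SD for VC and KO in each gene, so the larger SD of KO was not simulated. The 6 genes, the gene lists, the motifs and the tests were chosen with earlier results of these data known. Genes were named by rule: the 6 genes, the 2 nearest in pattern to each, and the called pathway genes with a mean in the upper 50% of signals. Other tested pathway genes are given as examples. Not every gene of the system is reported here. Of the 19306 tested genes, 17650 were matched by symbol to a chromosome of the RefSeq table for GRCh38.p14, whose chromosome coordinates are those of GRCh38. Alternatives were other filters, scalings, moderation, weights, a replicate block and each library left out; weights per group were added after the data were seen.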

Additional observations from a re-analysis of the deposited data

How the results depend on the processing

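PLAU, PLAUR and PLAT kept their direction and their side of the threshold in all 16 alternatives, and SERPINB2 in the 15 that could test it, since its mean is below the upper 50% of signals. The log2 fold change of PLAU ranged from 0.76 with library weights to 1.22 and that of SERPINB2 from 0.47 with 1 added to the linear signal to 3.74. SERPINE2 passed 0.05 with only the upper 50% of genes by signal, with genes of 6 values, with trend and robust estimation, without moderation and with weights per group (-0.27 in each), with 1 added (-0.26) and with library weights (-0.25). THBS1 passed with only the upper 50%, with genes of 6 values, with trend and robust estimation and with weights per group (-0.72 in each), with 1 added (-0.70), with library weights (-0.87) and without KO replicate 1 (-0.96). With single libraries left out the log2 fold changes ran from 0.96 to 1.22 for PLAU, 0.95 to 1.22 for PLAUR, 0.054 to 0.20 for PLAT, 3.06 to 3.74 for SERPINB2, -0.31 to -0.22 for SERPINE2 and -0.96 to -0.57 for THBS1. PLAU minus PLAUR, -0.015, was 0.0095 with 1 added and ran from -0.21 to 0.15 with single libraries left out; PLAU minus SERPINB2 was 0.59 with 1 added. The number of called genes, 6354 of all tested, was 13936 with library weights, which gave KO replicate 3 a weight of 86.5, and 1223 (without VC replicate 3) to 8669 (without KO replicate 1) with single libraries left out. For the wider pathway the 15 calls were 24 with library weights and 5 to 20 with single libraries left out. Centring libraries on the median of the tested genes gave 3141 higher and 3066 lower genes, where the main fit gave 2526 and 3828. With 1 added, the median log2 fold change of all genes moved from -0.13 to -0.023. A replicate block reduced the called genes to 1533 and those of the wider pathway to 5 and changed no call among the 6 genes. Same-numbered libraries did not deviate together (r = 0.023, 0.0051 and -0.0074 over 17698 genes), and 3 of 6 libraries correlated best with their own number, so the numbers were not taken as a pairing. The cause of these changes was not tested. Signal over background and depth cannot be judged from these values, which limits low genes such as SERPINB2 most.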
